A study of Homo sapiens with 4 samples.

Results

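The 9 genes F3, TFPI, TFPI2, THBD, PROCR, PLAT, PLAU, PLAUR and THBS1 were chosen by symbol as the cell-made part of tissue factor coagulation and of plasminogen activation, and all 9 were found among the 12912 genes of the count table and passed the filter on low counts. The comparison was of 786-O-VHL against 786-O-Ctrl, 2 sublines of 786-O, a human clear cell renal carcinoma line without functional VHL, the substrate receptor of a ubiquitin ligase for hypoxia-inducible factors. 786-O-Ctrl stayed VHL-null. In 786-O-VHL, HA-tagged VHL was put back with a retroviral vector. The labels name the triple-reporter derivatives (thymidine kinase, GFP and luciferase) of both sublines, grown in RPMI1640 with serum and antibiotics, and there was 1 subline per group, so that a property of the subline cannot be told apart from an effect of VHL. Each group had 2 RNA-seq libraries. Nothing in the labels says that they came from separate cultures, so p-values measure the spread between these libraries, which may be technical.

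Tissue factor, the product of F3, is the membrane receptor that binds factor VIIa and starts the clotting cascade, which ends in thrombin and fibrin. Tissue factor pathway inhibitor (TFPI) blocks this start, and thrombomodulin (THBD) with the endothelial protein C receptor (PROCR) turns thrombin towards the activation of anticoagulant protein C. Fibrin is removed by plasmin, which tissue-type (PLAT) and urokinase-type (PLAU) plasminogen activators release from plasminogen. Urokinase acts at the cell surface when bound to its receptor PLAUR, and it is a protease of matrix breakdown in carcinomas. Many of the circulating factors are made in the liver, whereas the genes described here are made by the cells that meet blood or matrix.

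The promoter windows of the initiator F3, of its inhibitor TFPI with the paralog TFPI2, and of THBS1 are shown first, as the members with which the results below begin and end. RefSeq windows on GRCh38.p14 were found for 7 of the 9 genes, with 2 windows for PLAU, and THBD and PLAT had none. The windows below are the 250 bases before the annotated start, 5′ to 3′ on the strand of the gene, and capitals mark matches to the motifs searched on both strands. These were ACGTG and GCGTG (cores of hypoxia response elements), TGANTCA (AP-1), GGGCGG (the SP1 box) and TATAAA (the TATA box).
F3, chr1:94541760-94542009, minus strand: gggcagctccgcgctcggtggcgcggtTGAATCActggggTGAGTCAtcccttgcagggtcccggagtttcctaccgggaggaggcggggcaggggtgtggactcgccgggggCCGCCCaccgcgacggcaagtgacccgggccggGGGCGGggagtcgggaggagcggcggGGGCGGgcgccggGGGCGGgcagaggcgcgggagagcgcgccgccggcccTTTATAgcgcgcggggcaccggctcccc
TFPI, chr2:187554436-187554685, minus strand: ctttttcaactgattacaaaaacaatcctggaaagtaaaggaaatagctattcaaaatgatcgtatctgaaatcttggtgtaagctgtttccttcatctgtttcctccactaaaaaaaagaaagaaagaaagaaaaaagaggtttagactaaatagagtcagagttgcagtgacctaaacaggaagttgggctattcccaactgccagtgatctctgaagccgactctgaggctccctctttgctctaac
TFPI2, chr7:93890754-93891003, minus strand: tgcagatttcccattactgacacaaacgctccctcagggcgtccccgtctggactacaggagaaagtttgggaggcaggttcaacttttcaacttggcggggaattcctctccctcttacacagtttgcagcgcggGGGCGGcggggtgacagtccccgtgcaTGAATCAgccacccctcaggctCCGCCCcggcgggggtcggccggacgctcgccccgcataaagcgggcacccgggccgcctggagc
THBS1, chr15:39580829-39581078, plus strand: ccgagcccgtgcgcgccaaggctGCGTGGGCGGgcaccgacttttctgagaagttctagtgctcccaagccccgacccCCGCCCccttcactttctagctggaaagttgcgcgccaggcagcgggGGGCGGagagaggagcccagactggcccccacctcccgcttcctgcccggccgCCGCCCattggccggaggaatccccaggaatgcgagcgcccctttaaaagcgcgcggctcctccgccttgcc

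The F3 window held 2 AP-1 motifs, whose first bases lie 223 and 210 bases before the start, 4 SP1 boxes at 137, 104, 78 and 65 bases, and a TATA box at 28 bases. Its GC content was 78%, with 34 CG dinucleotides, against medians of 58% and 11 over 35116 windows of the same length. No ACGTG or GCGTG lay in it. The TFPI window stood at the other end, with a GC content of 38.4%, 2 CG dinucleotides and none of the 5 motifs. TFPI2 had a GC content of 64.4%, 20 CG dinucleotides, 1 AP-1 motif at 87 bases and SP1 boxes at 114 and 65 bases. In THBS1, at a GC content of 69.6% and 24 CG dinucleotides, there were 4 SP1 boxes, at 223, 172, 125 and 72 bases, and a GCGTG at 227 bases that overlaps the most distant SP1 box. Among the windows printed, THBS1 was thus closer in composition to F3 and TFPI2 than to TFPI. Whether composition goes with the direction of change was not tested. Of the windows not printed, PLAUR held 1 AP-1 motif (186 bases) and 1 GCGTG (86 bases), the downstream PLAU window 1 GCGTG (113 bases) and 3 SP1 boxes, PROCR 2 SP1 boxes and 1 TATA box, and the upstream PLAU window none. Among all windows, 6.57% held the AP-1 letters, 42.6% the SP1 box, 10.7% the TATA box, 18.5% ACGTG and 32.2% GCGTG. A match describes letters and is no evidence that a factor binds there.

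The libraries held between 2807779 counts (786-O-VHL replicate 1) and 22141263 counts (the deeper 786-O-Ctrl library), and values are given in CPM, counts relative to library size after TMM scaling for composition. Both 786-O-Ctrl columns carry the same replicate number, and they are told apart here by depth, as deeper and shallower. In the shallow 786-O-VHL replicate 1, 3 counts correspond to 1.02 CPM, against 0.142 to 0.199 CPM in the other libraries, and intervals on its values cover counting error only. VHL itself stood at 42.9 and 43.9 CPM in the VHL-null libraries and at 178 and 163 CPM where VHL was restored, in the direction of the labels. Counts over the gene cannot separate the transcript of the vector from that of the cell. The 7 renal and ccRCC markers (PAX8, PAX2, KRT8, KRT18, VIM, NNMT and CA9) were all in the table, with a summed level of 3111 to 3118 CPM in 786-O-Ctrl and 1846 to 1880 CPM in 786-O-VHL. VIM, with means of 1684 and 730 CPM, made up most of this difference. PAX8, PAX2, KRT8 and VIM were called lower, KRT18 and CA9 were not called, and NNMT rose, with means of 203 and 293 CPM (edgeR FDR 2.38e-08). Of 6 endothelial markers, 3 had a row and summed to between 0.678 and 1.33 CPM, and CDH5, VWF and CLDN5 had no row. The 3 of 5 fibroblast markers with a row summed to 10.4 and 11.4 CPM in 786-O-Ctrl and to 15.3 and 14.6 CPM in 786-O-VHL, and 0 of 4 leukocyte and platelet markers had a row. The part of these marker differences in the results below was not tested.

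F3 fell, TFPI and THBS1 rose, TFPI2, PROCR, PLAT and PLAUR fell by less than F3, and THBD and PLAU did not pass the test. In the edgeR quasi-likelihood test over 12335 genes, at a Benjamini-Hochberg FDR of 0.05, 2 of the 9 genes rose in 786-O-VHL and 5 fell, beside 32.6% of all genes tested that were called higher and 31.9% called lower. The shares of all genes are large, so a call alone sets none of the 9 apart. At the thresholds of a change over 4-fold with an FDR under 0.01, 1 of the 9 passed, F3, which was lower, beside 2.92% of all genes called higher and 1.54% called lower. The median log2 fold change was −0.31 over the 9 genes and 0.02 over all genes tested. In these bulk samples, fewer cells that make a transcript and less RNA per cell cannot be told apart. The log-scale plot of levels shows the libraries of each gene side by side.

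**Figure D1:**
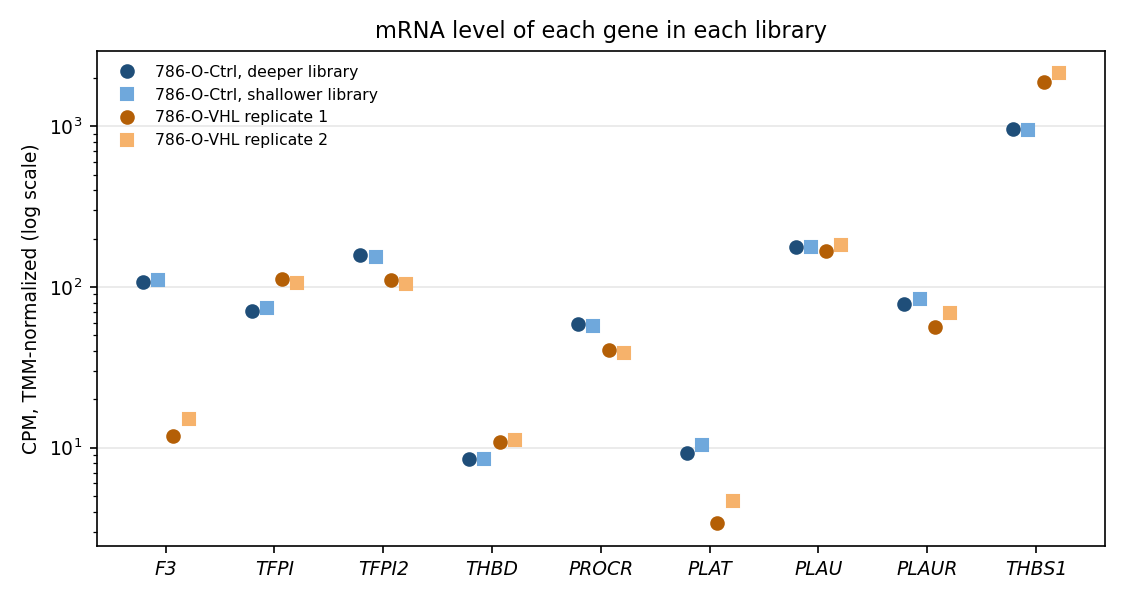
CPM after TMM scaling (log axis) of the 9 genes in each of the 4 libraries, with blue symbols for 786-O-Ctrl and orange symbols for 786-O-VHL. F3 drops from 107 and 111 to 11.9 and 15.0 CPM, THBS1 lies highest in every library, and the 4 PLAU points lie together between 168 and 183 CPM.

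F3 (ENSG00000117525.14, GRCh37 chr1:94994729-95007315, minus strand), the initiator, had 107 and 111 CPM in 786-O-Ctrl and 11.9 and 15.0 CPM in 786-O-VHL. Both 786-O-VHL libraries lay far below both 786-O-Ctrl libraries. The means were 109 ± 2.89 CPM and 13.4 ± 2.23 CPM (SD, n = 2 each), and the log2 fold change was −2.91 (SE 0.0949, 95% interval −3.10 to −2.71, edgeR FDR 3.64e-20), a level 7.51-fold lower in 786-O-VHL. F3 ranked 77 from the lowest log2 fold change among the 12335 genes tested. The value of 786-O-VHL replicate 1 rests on 35 counts, which gives an exact Poisson interval of 8.27 to 16.5 CPM, while the other 786-O-VHL library had 253 counts. The log2 fold change was −2.85 without the shallow library. F3 overlaps no other annotated gene.

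TFPI (ENSG00000003436.16, GRCh37 chr2:188328957-188430487, minus strand), the Kunitz-type inhibitor of factor Xa and of the tissue factor complex, moved the other way. Its levels were 71.1 and 73.6 CPM in 786-O-Ctrl and 113 and 106 CPM in 786-O-VHL. The groups did not overlap, and the rise was 1.5-fold, with a log2 fold change of 0.58 (SE 0.069, edgeR FDR 2.58e-08). Its paralog TFPI2 (ENSG00000105825.14, GRCh37 chr7:93514708-93520065, minus strand), a matrix-associated inhibitor of plasmin and of other serine proteases, did not follow it. TFPI2 stood at 158 and 154 CPM in 786-O-Ctrl and at 110 and 104 CPM in 786-O-VHL, 1.47-fold lower, with a log2 fold change of −0.56 (SE 0.0665, edgeR FDR 2.97e-08). The windows printed above for the 2 paralogs share no motif, as the TFPI window had none. TFPI2 overlaps GNGT1 on the opposite strand, whose CPM was between 0.991% and 5.54% of that of TFPI2.

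On the protein C side, the 2 receptors had opposite signs. THBD (ENSG00000178726.6, GRCh37 chr20:23026270-23030309, minus strand), which binds thrombin, had 8.5 and 8.51 CPM in 786-O-Ctrl and 10.9 and 11.2 CPM in 786-O-VHL. The groups did not overlap, but the log2 fold change of 0.38 (SE 0.172, 95% interval 0.03 to 0.74) had an edgeR FDR of 0.0532 and was not called. It was called by limma-voom (FDR 0.032), with library totals alone (0.0104), with at least 10 counts required in every library (0.0482) and without 786-O-VHL replicate 1 (0.0445), and its FDR ranged from 0.0104 to 0.774 over all alternatives. PROCR (ENSG00000101000.6, GRCh37 chr20:33759875-33804043, plus strand), which presents protein C to the thrombin-thrombomodulin complex, fell from 58.6 and 56.9 CPM to 40.4 and 39.0 CPM. Its groups did not overlap, with a log2 fold change of −0.56 (SE 0.0838, edgeR FDR 1.52e-06). The antisense gene MMP24OS overlaps PROCR and had 50.7 and 55.7 CPM in 786-O-Ctrl and 49.2 and 56.5 CPM in 786-O-VHL, between 86.4% and 145% of PROCR. Whether the counting used strand is not given in the sources used here, so reads of these 2 genes may not be told apart.

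Of the plasminogen activators, PLAT fell and PLAU did not pass the test. PLAT (ENSG00000104368.17, GRCh37 chr8:42032236-42065227, minus strand), the fibrin-bound activator, had 9.26 and 10.4 CPM in 786-O-Ctrl and 3.39 and 4.69 CPM in 786-O-VHL. Both 786-O-VHL libraries lay below both 786-O-Ctrl libraries, 2.20-fold lower, with a log2 fold change of −1.14 (SE 0.211, 95% interval −1.57 to −0.70, edgeR FDR 3.21e-05). Its SE was the widest of the 9, and 786-O-VHL replicate 1 held 10 counts, an exact Poisson interval of 1.63 to 6.24 CPM. PLAU (ENSG00000122861.16, GRCh37 chr10:75668935-75677254, plus strand), urokinase, had 177 and 178 CPM in 786-O-Ctrl and 168 and 183 CPM in 786-O-VHL. The groups overlapped, and the level in 786-O-VHL was 0.998 of that in 786-O-Ctrl (edgeR FDR 0.977), with a 95% interval of −0.13 to 0.13 on the log2 scale.

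PLAUR (ENSG00000011422.12, GRCh37 chr19:44150247-44174699, minus strand), the surface receptor of urokinase, had 78.6 and 84.3 CPM in 786-O-Ctrl and 56.3 and 68.6 CPM in 786-O-VHL. The groups did not overlap, although the 786-O-VHL libraries were further apart than the 786-O-Ctrl libraries. Its log2 fold change was −0.31 (SE 0.0786, edgeR FDR 0.00105). It was −0.53 without 786-O-VHL replicate 2, −0.24 without replicate 1 and −0.18 with library totals alone. With every library thinned to the depth of the shallowest it was −0.24 and lost its call (FDR 0.146, in a range of 0.000364 to 0.146 over the alternatives).

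THBS1 (ENSG00000137801.10, GRCh37 chr15:39873280-39891667, plus strand) encodes thrombospondin-1, a matrix and platelet glycoprotein that restrains angiogenesis and activates latent TGF-beta. Its levels were 964 and 954 CPM in 786-O-Ctrl and 1898 and 2143 CPM in 786-O-VHL. The groups lay apart, 2.11-fold higher in 786-O-VHL, with a log2 fold change of 1.08 (SE 0.0629, edgeR FDR 1.16e-14). Antisense neighbors that overlap PLAU and THBS1 were low, with C10orf55 at 0.325% to 1.04% of PLAU and FSIP1 at 0.0139% to 0.107% of THBS1. In the plot of changes, THBS1 and F3 lie at the 2 ends. Over the 9 genes, the libraries did not overlap with 786-O-VHL higher for 3 genes and with 786-O-VHL lower for 5, and over all genes tested these shares were 40.8% and 39.2%.

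**Figure D2:**
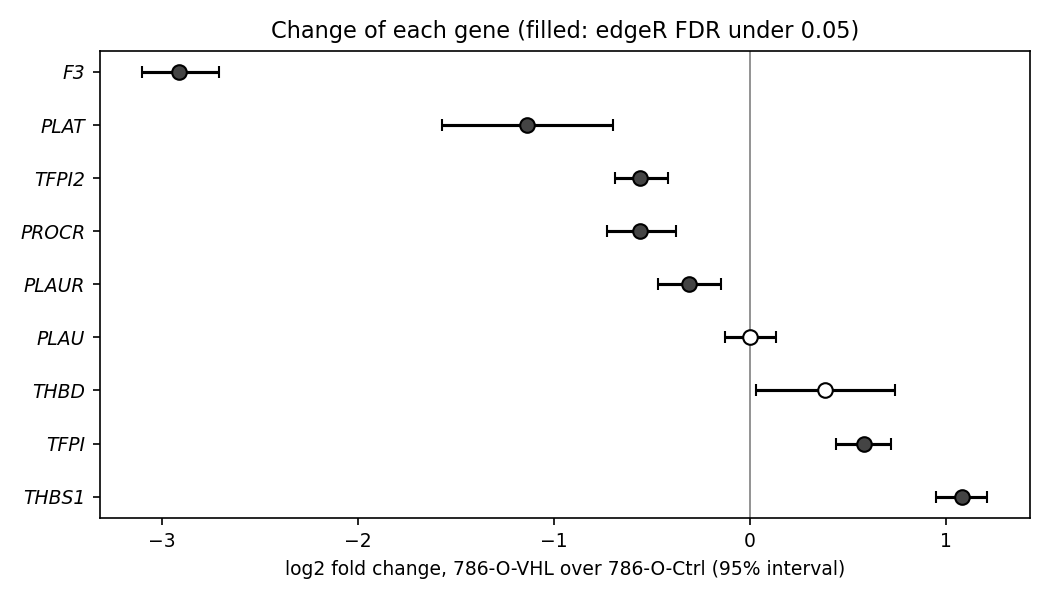
Fitted log2 fold change of each gene (x axis, 786-O-VHL over 786-O-Ctrl) with its 95% interval, filled where the edgeR FDR was under 0.05. F3 lies at −2.91, PLAT has the widest interval of the genes called, and the intervals of PLAU (−0.13 to 0.13) and THBD (0.03 to 0.74) belong to the 2 genes not called.

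**Figure D3:**
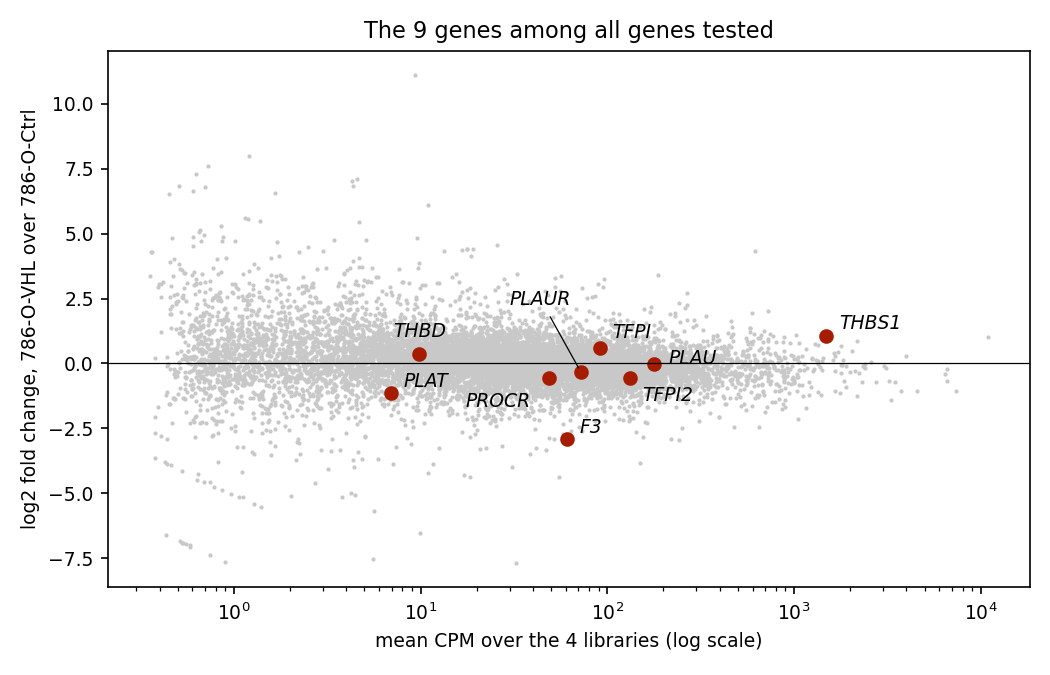
Fitted log2 fold change (y axis) against the mean CPM of the 4 libraries (log x axis) for all 12335 genes tested (grey) and the 9 genes (red). F3 lies below the bulk of genes of similar level, THBS1 lies at the high end of expression with a log2 fold change of 1.08, and the other 7 lie within the band of most genes.

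Levels were set side by side per length, as CPM per kb of all annotated exons. In 786-O-Ctrl the order was THBS1 (105), TFPI2 (63.8), PLAU (60.3), F3 (37.7), PROCR (34.0), PLAUR (18.3), TFPI (6.18), THBD (2.10) and PLAT (1.27), as means of 2 libraries. In 786-O-VHL it was THBS1 (221), PLAU (59.5), TFPI2 (43.9), PROCR (23.4), PLAUR (14), TFPI (9.34), F3 (4.66), THBD (2.73) and PLAT (0.52). F3 thus went from place 4 to place 7, and from the 90.3 to the 45.7 percentile of all genes with a length. The libraries of neighbors in these orders did not overlap in either group, as for F3 (37 and 38.4) and PROCR (34.6 and 33.5) in 786-O-Ctrl. With the canonical transcript in place of all exons, F3 was at place 5 in 786-O-Ctrl and again at place 7 in 786-O-VHL. PLAUR then stood above F3 in 786-O-Ctrl, and it overlapped TFPI2 in 786-O-VHL (41.2 and 50.2 against 50 and 47.3 CPM per kb), as PROCR did TFPI (29.9 and 28.9 against 29.2 and 27.5), so places near each other depend on the length used.

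Ratios between partners were formed within each library from CPM per kb of exon. They are given without a test, since an exact permutation test of 2 libraries against 2 cannot reach a p of 0.05. The 5 pairs were set by function. The ratio of F3 to TFPI, initiator over inhibitor, was 6.09 and 6.11 in 786-O-Ctrl against 0.428 and 0.574 in 786-O-VHL. F3 was thus above TFPI in both 786-O-Ctrl libraries and below it in both 786-O-VHL libraries, a 12.3-fold difference of the ratio. The same change of side was seen with canonical transcript lengths, where the ratio was 2.52 and 2.53 in 786-O-Ctrl against 0.177 and 0.237 in 786-O-VHL. For F3 over TFPI2, which both fell, the ratio was 0.573 and 0.608 against 0.0912 and 0.122, a 5.60-fold difference.

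The ratio of PLAU to PLAT, urokinase over tissue-type activator, was 50.5 and 45 in 786-O-Ctrl against 131 and 103 in 786-O-VHL. PLAU over its receptor PLAUR was 3.41 and 3.20 against 4.52 and 4.02, and THBD over PROCR 0.0609 and 0.0628 against 0.113 and 0.120. These 3 ratios were higher in both 786-O-VHL libraries.

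**Figure D4:**
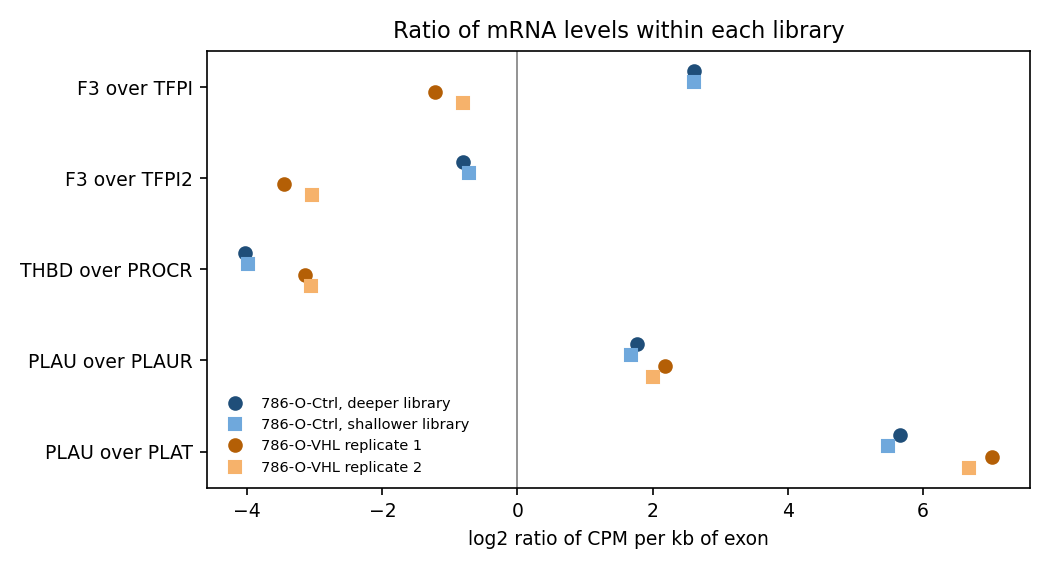
Log2 ratio of CPM per kb of exon (x axis) for 5 pairs of genes in each library, with blue symbols for 786-O-Ctrl and orange symbols for 786-O-VHL. F3 over TFPI crosses 0, from 2.61 in both 786-O-Ctrl libraries to −1.22 and −0.80 in 786-O-VHL, and PLAU over PLAT lies furthest right, at 5.49 or higher in the 4 libraries.

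A further 63 genes of coagulation and fibrinolysis were listed by role. Of these, 35 had a row and 34 were tested, with 8 higher, 16 lower and 10 not called, and a median log2 fold change of −0.13 against 0.02 over all genes. The counts of calls here and in the groups below stand beside 32.6% of all genes tested that were called higher and 31.9% called lower, and nothing particular to a group is read from them. SERPINF2 had too few counts to be tested. Most of the circulating factors had no row, among them F5, F7, F9, F10, F11, the 3 fibrinogen chains FGA, FGB and FGG, and plasminogen (PLG). How genes were left out of the deposited table is not given in the sources used here. For these and all other genes without a row, a missing row is therefore not a measured absence.

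All 4 protease-activated receptors, through which thrombin and factor Xa signal to cells, were called lower (31.9% of all genes were), and their median log2 fold change was −0.91. F2R, the main thrombin receptor, had 46.3 and 44.3 CPM in 786-O-Ctrl and 40.0 and 32.5 CPM in 786-O-VHL (log2 fold change −0.40, SE 0.097, edgeR FDR 0.000659). F2RL1, cleaved by trypsin-like proteases and by the tissue factor complex, had 22.6 and 22.1 CPM against 17.0 and 14.3 CPM (log2 fold change −0.59, SE 0.131, edgeR FDR 0.000268). These 2 of the 4 calls rest on 786-O-VHL replicate 2. When it was left out the changes were −0.19 (FDR 0.289, in a range of 3.63e-05 to 0.289 over the alternatives) for F2R and −0.40 (FDR 0.113, in a range of 4.79e-05 to 0.113) for F2RL1. F2RL3, the other thrombin receptor of platelets, had 41 and 17 counts in 786-O-Ctrl against 0 and 1 in 786-O-VHL (edgeR FDR 3.37e-05), a pooled CPM ratio of 31.8 with a counting interval of 5.48 to 1277. The log2 fold change of F2RL3 ranged from −7.38 to −3.69 over the alternatives. The fourth, F2RL2, is named after its values were seen. It had 36 and 33 counts in 786-O-Ctrl against 3 and 13 in 786-O-VHL (log2 fold change −1.23, SE 0.451, edgeR FDR 0.0185). Its values under the alternatives were not looked at, so its call is not shown to be firmer than those of F2R and F2RL1.

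Among 10 tested genes for clotting factors, their carboxylation and their secretion, 5 were lower and 5 were not called, with a median of −0.26, beside 31.9% of all genes called lower. TGM2, a tissue transglutaminase related to factor XIII, fell from 1170 and 1117 CPM to 568 and 558 CPM (log2 fold change −1.02, edgeR FDR 1.59e-14). VKORC1L1, a vitamin K epoxide reductase, fell by 0.96 on the log2 scale (FDR 1.16e-12). LMAN1, the cargo receptor that takes factors V and VIII out of the endoplasmic reticulum, fell by 0.88 (FDR 1.19e-12). The other 2 called, VKORC1 and P4HB, are named after their values were seen.

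Of 6 tested anticoagulant genes, 1 was higher and 3 were lower, beside 32.6% and 31.9% of all genes. PROS1, protein S, the cofactor of activated protein C and of TFPI, rose from 13.7 and 14 CPM to 29.5 and 28.5 CPM (log2 fold change 1.06, SE 0.122, edgeR FDR 1.49e-08). PROS1 and TFPI thus both rose, while GAS6, the protein S relative that activates the AXL receptor kinase, fell by 0.70 on the log2 scale (FDR 1.50e-09). NT5E, the ectoenzyme that makes adenosine from AMP, fell from 246 and 248 CPM to 91.9 and 109 CPM (log2 fold change −1.25, FDR 8.12e-15). The third gene called lower, ANXA5, is named after its values were seen.

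Among inhibitors of the plasminogen activators, 2 were tested, of which 1 was higher, beside 32.6% of all genes. SERPINE2, protease nexin-1, rose from 96.7 and 102 CPM to 137 and 114 CPM (log2 fold change 0.30, SE 0.0739, edgeR FDR 0.001). It was 0.47 without 786-O-VHL replicate 2 and 0.21 without replicate 1. SERPINB2 had no row.

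The 8 tested genes of plasminogen binding and activator uptake split into 4 higher, 3 lower and 1 not called, beside 32.6% of all genes called higher and 31.9% called lower. ANXA2, which binds plasminogen at the cell surface, fell by 0.33 on the log2 scale (FDR 2.83e-05), its partner S100A10, which binds plasminogen and PLAT, by 0.51 (FDR 8.65e-08), and the glycolytic enzyme and surface plasminogen receptor ENO1 by 0.71 (FDR 2.93e-11). LRP1 and VLDLR, endocytic receptors of activator-inhibitor complexes, had log2 fold changes of 0.31 (FDR 0.000222) and 0.40 (FDR 0.000166), and the integrin subunit ITGAV one of 0.34 (FDR 2.39e-05). VLDLR lost its call without the deeper 786-O-Ctrl library (FDR 0.0642, in a range of 3.06e-06 to 0.0642).

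Among partners of thrombospondin-1, SDC1, a heparan sulfate proteoglycan, fell from 437 and 405 CPM to 150 and 153 CPM (log2 fold change −1.47, edgeR FDR 4.44e-17). THBS3 rose with THBS1, from 7.12 and 6.25 CPM to 18.0 and 13.2 CPM (log2 fold change 1.10, FDR 6.19e-06). ITGA3, a laminin and thrombospondin receptor subunit, rose by a log2 fold change of 0.30 (FDR 5.60e-05), a call lost without the shallower 786-O-Ctrl library (FDR 0.0564, in a range of 1.42e-09 to 0.0564). The receptor CD47 had a log2 fold change of −0.03 (95% interval −0.17 to 0.11, FDR 0.749), and CD36 had no row.

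**Figure D5:**
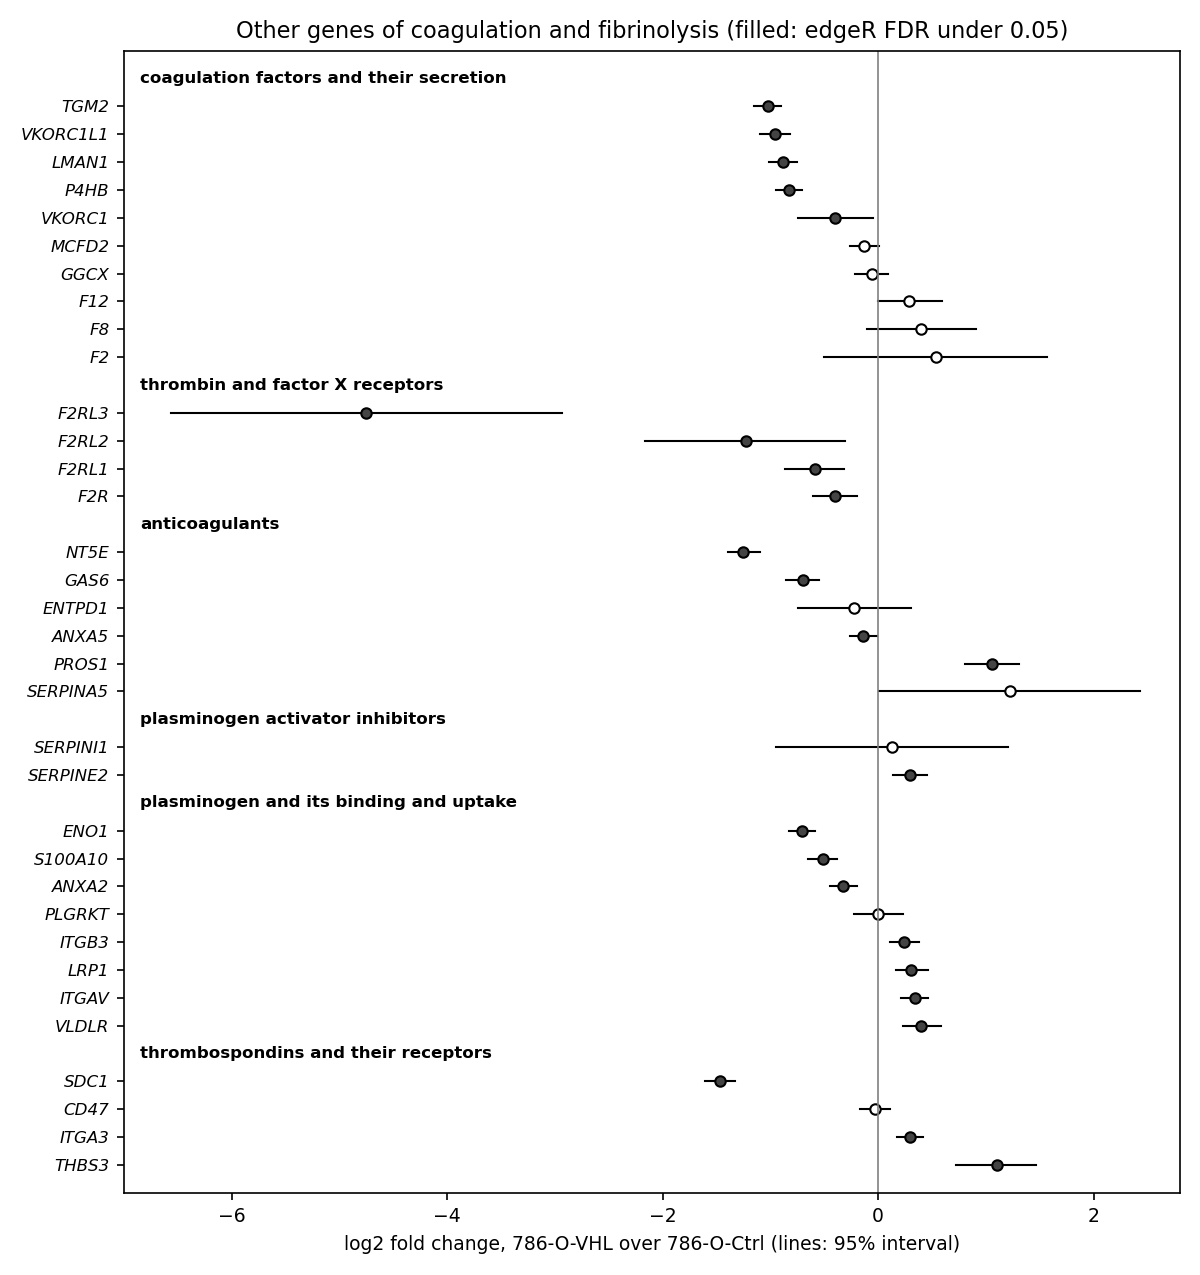
Fitted log2 fold change (x axis) with 95% intervals of the 34 other genes tested, grouped by role and filled where the edgeR FDR was under 0.05. All 4 receptors of thrombin and factor Xa lie left of 0. F2RL3, whose 786-O-VHL libraries held 0 and 1 counts, had log2 fold changes from −7.38 to −3.69 over the alternatives.

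The genes most like F3 over the 4 libraries were found by the Euclidean distance of centred log2 CPM among 9235 genes with a mean of at least 10 CPM. They were STC1 (stanniocalcin-1, distance 0.232, log2 fold change −3.16), FEN1 (flap endonuclease, 0.247, −2.71) and MCM4 (a replicative helicase subunit, 0.247, −2.93). With 4 libraries in 2 groups, the measure is set largely by the size of the difference between groups.

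The nearest tested gene on each side of the 9 members was also looked at, a choice made after values had been seen. Of these 18 neighbors, 5 were higher, 3 were lower and 10 were not called, beside 32.6% of all genes called higher and 31.9% called lower. Next to F3, ABCD3 had a log2 fold change of −0.38 (edgeR FDR 5.19e-05) and SLC44A3 one of −0.06 (FDR 0.83), both closer to 0 than the −2.91 of F3.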

How the data were processed

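RNA of both sublines (2 libraries each) was sequenced on the Illumina platform and aligned to hg19, and the authors deposited 1 table of raw counts per gene without normalization. The labels list CASAVA and STAR without versions or roles. How reads were counted, with which annotation and whether by strand is not given in the sources used here. Group came from the sample titles and, for the 786-O-Ctrl columns, from the column header. The 786-O-Ctrl columns share 1 replicate number and were used as unnumbered replicates.

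The main test was that of edgeR 4.0.16 (R 4.3.3), with filterByExpr at a minimum count of 10 (12335 genes kept, 577 removed), TMM and the quasi-likelihood F test with group as the only term. FDR is the Benjamini-Hochberg value over all genes tested. SE was the log2 fold change over the square root of F, and 95% intervals used the t distribution with the moderated degrees of freedom. The biological coefficient of variation was 4.31%. Genes were handled by Ensembl identifier, of which 12749 were found in the GRCh37 annotation (GENCODE) used for coordinates and lengths. 786-O-VHL replicate 1 is the shallowest library and limits genes with few counts.

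The members and lists were chosen with earlier results of these data known. Named genes were all members, VHL, 9 direct partners (1 further gene of the lists is not reported here), at most 3 genes per direction of each list with the largest fold change past an FDR of 0.01, and the 3 genes nearest to F3. Alternatives were DESeq2 1.42.0, limma-voom (limma 3.58.1), RLE factors, library totals alone, other filters, thinning, each library left out, and a change over 4-fold at an FDR under 0.01. The script was tested on simulated data for this comparison (12335 genes, 200 changed). There edgeR recovered 190 with 10 false calls, limma-voom 190 with 12 and DESeq2 174 with 0. Far fewer genes were changed in the simulation than were called in the data. These counts check that the script runs correctly and are not error rates for these data.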

Additional observations from a re-analysis of the deposited data

How the results depend on the processing

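For changes over 4-fold at an FDR under 0.01, the counts went from 2 to 0 higher and from 5 to 1 lower for the 9 genes, and from 8 to 0 higher and from 16 to 1 lower for the other genes, as the stricter threshold requires. Under the other alternatives the 9 genes gave 2 to 3 higher and 4 to 5 lower, and the other genes 6 to 10 higher and 12 to 16 lower. Of 99 refits of the 9 genes, 90 kept direction and call, 1 lost a call (PLAUR), 4 gained one (THBD) and 4 changed sign (PLAU). Of 229 refits of the 21 other named genes, VHL included, 222 kept both. Values that changed sign were all near 0. PLAU was 0.00 by limma-voom and with at least 10 counts in every library, 0.13 with library totals alone, and between −0.09 and 0.04 with 1 library left out. CD47 was 0.11 with library totals alone, 0.01 after thinning and between −0.10 and 0.04 with 1 library left out. The cause was not tested. Library totals alone moved the median log2 fold change of all genes from 0.02 to 0.15 and the share of calls that were higher from 50.5% to 62.1%. F2RL3 could not be fitted with at least 10 counts in every library or after thinning. In each of these settings 29 of the 34 other genes were tested, so their counts of calls have a smaller base. No paired analysis was possible because both 786-O-Ctrl columns carry the same replicate number. Of the 9 genes PLAT had the fewest counts in 786-O-VHL replicate 1, with 10. Of the other genes tested, SERPINI1 and F2RL3 had 0 there, F2 had 2, F2RL2 had 3 and SERPINA5 had 4, so depth limits these values.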
